A study of Homo sapiens with 2 samples.

Results

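The kinases of the CLK and SRPK families were examined in HEK293 cells: CLK1, CLK2, CLK3 and CLK4, which are dual-specificity kinases of the nucleus, and SRPK1 and SRPK2, which are SR protein kinases found largely in the cytoplasm. The genes were chosen by name, and every listed transcript of them was taken, 89 transcripts of 6 genes among 202217 transcripts of 59026 genes that were matched to the annotation. The CLK genes had 61 of these transcripts and the SRPK genes 28. After rRNA depletion, total RNA was sequenced in 2 libraries, numbered replicate 1 and replicate 2, from untreated HEK293 Flp-In T-Rex cells. This is a derivative of an established human embryonic kidney line with an integrated site for tetracycline-controlled transgenes. All libraries belonged to this group, so no condition was compared, and the labels did not state whether the replicates were separate cultures. The SDs therefore measure the spread between these libraries, which may be technical, and the cell line label was not checked against marker genes.

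CLK and SRPK kinases phosphorylate the arginine-serine domains of SR proteins, the splicing factors that help to define exons. SRPKs phosphorylate SR proteins for import into the nucleus, and CLKs phosphorylate them further there and release them from nuclear speckles. The CLK genes are themselves known for detained introns, which are kept in polyadenylated transcripts that stay in the nucleus until they are spliced or degraded. In CLK1 the introns on either side of exon 4 are known for this, and skipping of exon 4 shifts the reading frame ahead of the kinase domain. Whole-cell RNA does not separate nuclear from cytoplasmic transcripts, so a transcript that holds an intron is described here only as that. Total RNA depleted of rRNA can also contain transcripts that are not yet spliced. Their part in the counts of intron-holding transcripts was not tested.

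Exon 4 is shown for the 4 CLK genes because each had counted transcripts that hold intron 4 and others that skip exon 4. It was not the only such place. Exon 10 of CLK1 and CLK4 was also skipped, as given below. Introns 2 and 7 of CLK1, 10 and 11 of CLK2, and 11 and 12 of CLK4 were also held. The sequences were read from the GRCh38 genome on the coding strand, with exon 4 of the MANE transcript (the reference transcript of a gene) in capitals, 20 bases of intron 3 before it and 6 bases of intron 4 after it. The positions are chr2:200860119-200860235 for CLK1, chr1:155268702-155268815 for CLK2, chr15:74622100-74622222 for CLK3 and chr5:178617338-178617454 for CLK4, with CLK3 on the plus strand and the others on the minus strand.
CLK1: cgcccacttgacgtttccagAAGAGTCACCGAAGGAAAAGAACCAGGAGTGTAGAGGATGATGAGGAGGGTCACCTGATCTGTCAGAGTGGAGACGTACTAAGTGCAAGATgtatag
CLK2: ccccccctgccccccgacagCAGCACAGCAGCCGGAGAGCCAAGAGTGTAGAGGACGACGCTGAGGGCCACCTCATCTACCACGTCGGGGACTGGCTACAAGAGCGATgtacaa
CLK3: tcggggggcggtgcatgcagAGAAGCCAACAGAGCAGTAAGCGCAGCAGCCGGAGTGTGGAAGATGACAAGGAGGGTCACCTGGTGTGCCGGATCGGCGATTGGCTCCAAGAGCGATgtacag
CLK4: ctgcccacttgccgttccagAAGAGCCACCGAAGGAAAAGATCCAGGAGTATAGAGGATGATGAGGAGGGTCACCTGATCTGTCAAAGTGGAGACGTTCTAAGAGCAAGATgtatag

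Exon 4 was 91 nt long in CLK1 and CLK4, 88 nt in CLK2 and 97 nt in CLK3, and none of these lengths is a multiple of 3. It lay inside the coding sequence of all 4 MANE transcripts. Aligned end to end, exon 4 of CLK1 and CLK4 was identical at 85 of 91 positions (93.4%), while the other 5 pairs were identical at 62.6 to 66.3% of the aligned positions. The 4 MANE transcripts had 13 exons each, and the 8 exons from exon 5 to exon 12 had equal lengths in all 4 genes. Intron 4 was short in each, with 378 nt in CLK1, 348 nt in CLK2, 277 nt in CLK3 and 395 nt in CLK4. Intron 3 was longer, with 1022, 692, 1894 and 1121 nt. In base composition the introns differed widely, since G and C made up 26.2% of intron 4 in CLK1 and 30.4% in CLK4, but 51.7% in CLK2 and 48.7% in CLK3.

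The start of intron 4 was alike in the 4 genes. Each began with GTAC or GTAT, read on the coding strand only, after an exon that ends in T. Among 113105 introns of MANE transcripts of protein-coding genes, 14.7% began with GTAC or GTAT, 81.1% followed an exon that ends in G, and 1.57% joined the first property with an exon that does not end in G. Of 48 introns in the CLK genes, these 4 had both features and no other did. This is a description of sequence, made after intron 4 had been seen to be held, and 2.39% of the 670 introns that transcripts held at 25% or more in both libraries had the same feature.

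SRPK1 (ENSG00000096063.16, chromosome 6) had the highest level of the 6 genes and CLK4 (ENSG00000113240.14, chromosome 5) the lowest. Levels between genes are given per length, as estimated counts divided by transcript length and scaled to 1000000 over all matched transcripts. SRPK1 had 93.5 in replicate 1 and 74.8 in replicate 2, averaging 84.2 ± 13.2 (SD, n = 2). CLK3 (ENSG00000179335.20, chromosome 15) had 47.1 and 47.7 per length, averaging 47.4 ± 0.428 (SD, n = 2), and was the highest of the CLK genes. Both libraries placed SRPK1 and CLK3 above the other members, without overlap.

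SRPK2 (ENSG00000135250.17, chromosome 7) had 26.7 and 22.7 per length, averaging 24.7 ± 2.85 (SD, n = 2). CLK2 (ENSG00000176444.19, chromosome 1) had 20.9 and 21.6, averaging 21.3 ± 0.538 (SD, n = 2), and CLK1 (ENSG00000013441.17, chromosome 2) had 20.9 and 16.7, averaging 18.8 ± 2.97 (SD, n = 2). CLK4 had 9.54 and 6.08, averaging 7.81 ± 2.44 (SD, n = 2). A difference between members was called larger than the spread when it had the same sign in each library and its mean was larger than both SDs added up. Of 15 pairs, 14 differed in level by this rule. The exception was CLK1 with CLK2, next to each other in the order, whose means differed by less than the sum of their SDs, 3.50 per length, and whose order changed between the libraries. The narrowest of the calls was SRPK2 above CLK1, where CLK1 minus SRPK2 was -5.88 per length against a sum of SDs of 5.82. CLK2 minus SRPK2 was -3.46 against 3.39.

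**Figure D1:**
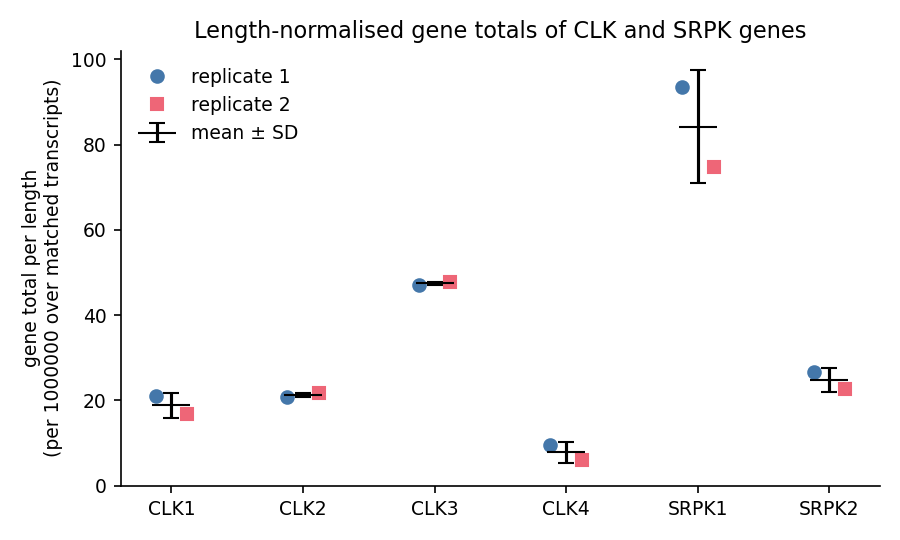
Gene totals per length of the 6 kinase genes, as counts divided by transcript length and scaled to 1000000 per library, with a circle for replicate 1, a square for replicate 2 and a bar for mean ± SD (n = 2). SRPK1 is highest with 84.2 ± 13.2 and CLK4 lowest with 7.81 ± 2.44, while CLK1 and CLK2 overlap.

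SRPK1 was thereby 3.41-fold higher than SRPK2 in level per length, with 3.50-fold in replicate 1 and 3.30-fold in replicate 2. CLK3 was 6.07-fold higher than CLK4, its ratio being 4.94 in replicate 1 and 7.85 in replicate 2. Among 11405 protein-coding genes with at least 100 normalised counts in both libraries, SRPK1 was above 93.7% and CLK3 above 87.4% in level per length, whereas CLK4 was above 32.5%. Limited to protein-coding transcripts, CLK1 fell to 5.16 ± 0.413 per length and CLK3 had 36.4 ± 1.39 (SD, n = 2 each).

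On the scale of the authors' normalised counts, which are divided by a size factor per library and not by length, CLK1 held 1014 counts in replicate 1 and 794 in replicate 2. The same total was 1026 and 1061 for CLK2, 2375 and 2434 for CLK3, and 507 and 348 for CLK4. SRPK1 held 9086 and 7043, and SRPK2 held 2340 and 1870. Of the 6 genes, 4 were thus lower in replicate 2, against 61% of the 11405 genes, so the members' direction was that of most genes. CLK4 differed most between the libraries, by -0.54 on the log2 scale (replicate 2 minus replicate 1), where the median of the 11405 genes was -0.11 and their SD 0.33. For CLK1 this difference was -0.35, for SRPK1 -0.37 and for SRPK2 -0.32, while CLK2 and CLK3 had 0.05 and 0.04.

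The annotation sorts transcripts into protein-coding ones, ones that hold an intron sequence (retained_intron), targets of nonsense-mediated decay with an early stop codon, and others, among them transcripts without a defined coding sequence. Protein-coding transcripts took the smallest share in CLK1, with 28.8% of its counts in replicate 1 and 31.8% in replicate 2. Retained_intron transcripts held 28.6% of CLK1 in replicate 1 (95% exact binomial interval 25.8 to 31.6%) and 24.6% in replicate 2 (21.8 to 27.7%), averaging 26.6% ± 2.84 (SD, n = 2). Decay transcripts held 42.5% and 43.6% of CLK1, averaging 43.1% ± 0.720 (SD, n = 2). Together both classes made up 71.2% and 68.2% of CLK1 counts, so these 2 classes held most of the counts of this gene.

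CLK4 had the highest retained_intron share, 30.9% in replicate 1 (26.8 to 35.2%) and 30.1% in replicate 2 (25.5 to 35.0%), averaging 30.5% ± 0.628 (SD, n = 2). Its decay share was 11.9% in both libraries, and 52.1% and 55.5% of its counts were on protein-coding transcripts. CLK3 had 17.0% (15.4 to 18.6%) and 20.9% (19.4 to 22.5%) on retained_intron transcripts, averaging 19.0% ± 2.79 (SD, n = 2), and 1.38% and 2.32% on decay transcripts. CLK1 differed from both in having more counts in the decay class than in any other.

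CLK2 had no annotated transcript of either class, so its share was 0 by annotation and says nothing of its introns. In its place 23.0% and 24.0% of CLK2 counts lay on transcripts without a defined coding sequence, and 77.0% and 76.0% on protein-coding ones. The SRPK genes were nearly all protein-coding, with 97.9% and 96.5% in SRPK1 and 88.0% and 91.6% in SRPK2. Retained_intron transcripts held 1.65% (1.38 to 1.93%) and 3.21% (2.82 to 3.62%) of SRPK1, averaging 2.43% ± 1.103, and 8.90% (7.75 to 10.2%) and 6.32% (5.28 to 7.45%) of SRPK2, averaging 7.61% ± 1.82 (SD, n = 2 each). The decay share was 0.498% and 0.316% in SRPK1, and 2.59% and 1.44% in SRPK2.

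**Figure D2:**
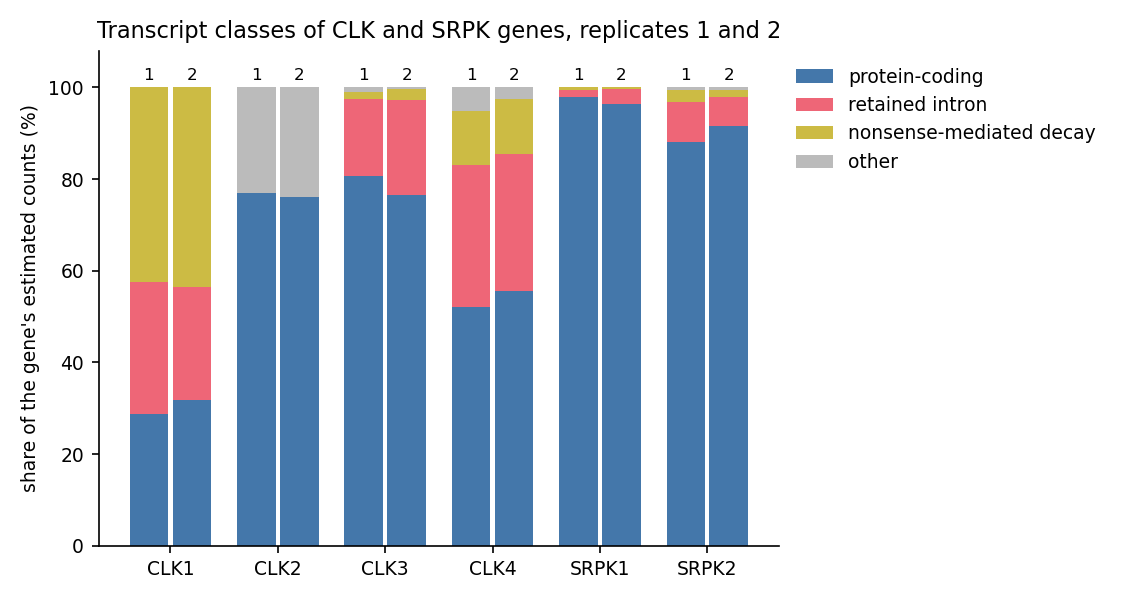
Share of each gene's estimated counts, in percent, on protein-coding, retained_intron, nonsense-mediated decay and other transcripts, with 1 bar for replicate 1 and 1 for replicate 2. The retained_intron and decay classes together take 71.2% and 68.2% of CLK1 and 2.14% and 3.52% of SRPK1.

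All 10 pairs among the 5 genes with a retained_intron transcript differed in that share by the rule of order and SDs. The order was CLK4, CLK1, CLK3, SRPK2 and SRPK1, and CLK4 stood above CLK1 by 3.89 percentage points, against a sum of SDs of 3.47. When transcripts under 1 normalised count in either library were left out, 9 of the 10 pairs differed. The call of CLK4 above CLK1 was then lost, with CLK1 minus CLK4 at -3.28 points against a sum of SDs of 4.33. With counts divided by length 8 pairs differed, all but SRPK2 with CLK3 and SRPK2 with SRPK1. The SRPK1 share then rose from 2.43% to 8.20% ± 0.871, over 3 times as high. The SRPK2 mean rested on SRPK2-202, whose annotated version differs from the counted one. Limited to transcripts of the same version it was 32.6%, and likewise that of CLK4 was 56.2% without CLK4-201.

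No member reached a retained_intron share of at least 50% in both libraries, which 2.54% of 6852 protein-coding genes did (those with such a transcript and at least 100 normalised counts in each library). For the decay class the share was 4.97% of 5174 genes, again with no member. Over both classes together CLK1 was the only member at 50% or more, where 7.62% of 8001 genes were. In retained_intron share CLK4 was above 91.8% of the 6852 genes, CLK1 above 90.1% and CLK3 above 84.4%, and SRPK2 and SRPK1 above 61.6% and 32.3%. The median gene had 4.94%. Divided by length, these places were lower for the CLK genes, at 86.9% for CLK4, 82.9% for CLK1 and 66.0% for CLK3.

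**Figure D3:**
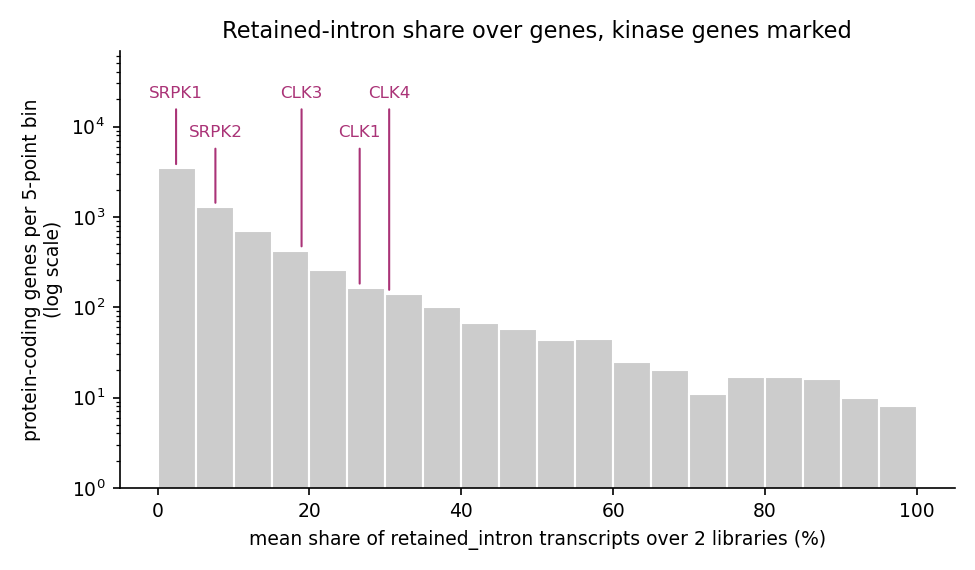
Number of protein-coding genes, on a log scale, by mean retained_intron share over the libraries in bins of 5 percentage points, for 6852 genes, with the 5 kinase genes that have such a transcript marked by lines. CLK1 (26.6%) and CLK4 (30.5%) lie in the thinning upper part, and SRPK1 (2.43%) in the first bin.

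Within CLK1 the counts were spread over 5 transcripts that had at least 5% of the gene on average. CLK1-204 (ENST00000432425.5), a decay transcript that skips exon 4, had 254 normalised counts in the first library and 133 in the other. CLK1-205 (ENST00000434813.3), protein-coding, held 229 and 230.4, and CLK1-202 (ENST00000409403.6), a decay transcript that skips exon 10, held 177 and 213. The leading transcript was CLK1-204 in replicate 1 and CLK1-205 in replicate 2. Their mean shares were 20.9% ± 5.87, 25.8% ± 4.53 and 22.1% ± 6.59 (SD, n = 2), so these 3 transcripts did not differ beyond their spread.

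The retained_intron counts of CLK1 were mainly on CLK1-210 (ENST00000473565.5), which holds introns 3 and 4, with 157 and 56.8 counts, and on CLK1-207 (ENST00000461981.5), which starts inside intron 3 and holds introns 4 and 7, with 78.4 and 96.4 counts. Their order differed between the libraries. The MANE transcript CLK1-201 had 50.2 counts in replicate 1 and had none in replicate 2, where a count of 0 allows up to 0.350%. Its counted version differs from the annotated one. Reads were divided between the CLK1 transcripts by the counting program, and the sequence that sets them apart is small. Of all 50-nt words in CLK1-204, 2.88% were in no other CLK1 transcript, and the value was 2.85% for CLK1-202, 1.87% for CLK1-210 and 25% for CLK1-207. It was 15.6% for CLK1-205, whose first exon lies inside intron 1 of the MANE transcript. The intervals given here cover counting error only and not this division.

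In CLK4, CLK4-201, the protein-coding MANE transcript, led in both libraries with 220.5 and 167 counts, or 45.7% ± 3.13 (SD, n = 2). CLK4-206 holds intron 3 and had 69.99 and 35.4 counts, and CLK4-203 holds introns 3 and 4 and had 20.4 and 30.7. The short CLK4-205, a retained_intron transcript of 857 nt that has part of intron 4, had 31.2 and 16.4 counts. CLK4-209, the decay transcript with 60.2 and 41.5 counts, joins exon 4 to its neighbours and has further sequence from intron 2. CLK4-208, called protein-coding but ending in intron 2, had 43.7 and 26.3. CLK4-206 and CLK4-203 have no 50-nt word of their own. RN7SKP70, a non-coding gene (biotype misc_RNA) inside intron 2 on the same strand, had 1.06 and 3.38 counts. It shares 161 nt with CLK4-209 and 59 nt each with CLK4-206 and CLK4-203. Whether reads from that or similar sequence were counted on these transcripts was not tested.

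**Figure D4:**
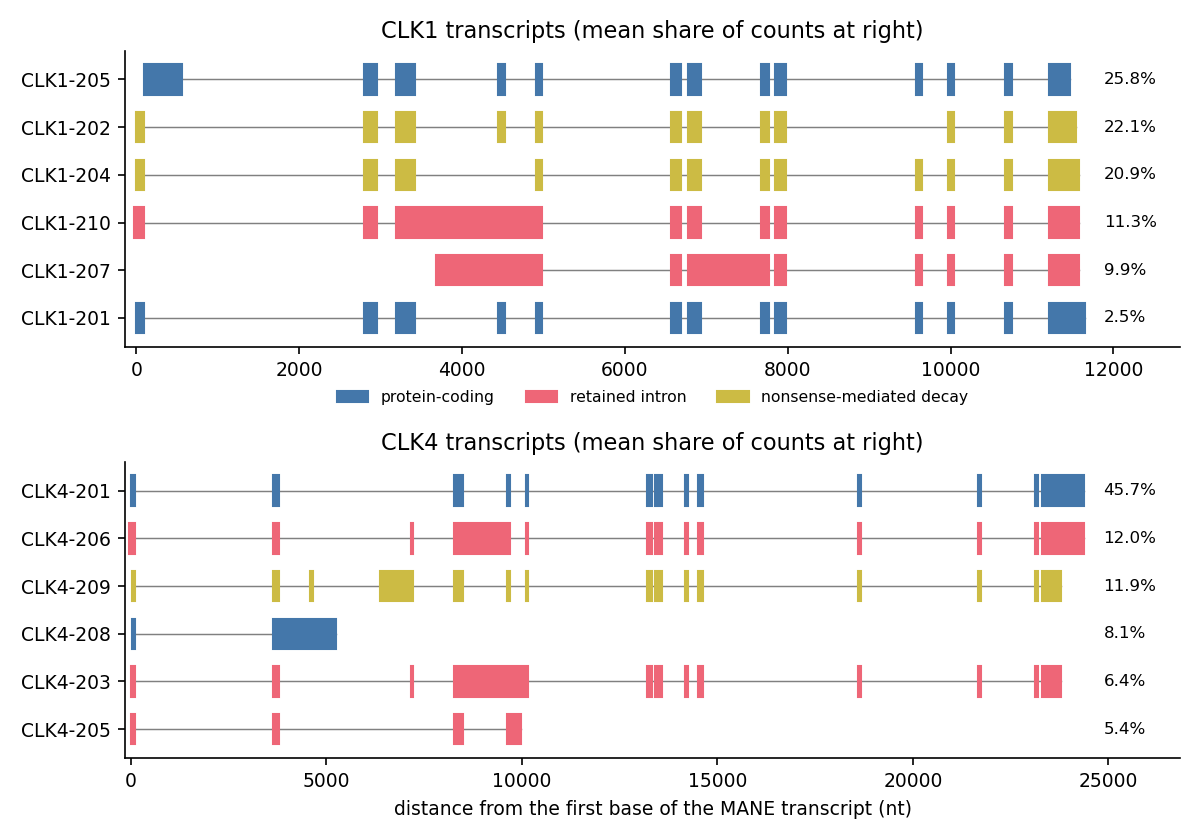
Exons (boxes) of CLK1 and CLK4 transcripts that averaged 5% or more of the gene and of the MANE transcripts, by distance in nt from the first base of the MANE transcript, coloured by class, with the mean share of the gene's counts at right. CLK1-210 and CLK4-203 run through introns 3 and 4 as 1 box, and CLK1-204 lacks exon 4.

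CLK3 was led by the protein-coding CLK3-201, with 1327 and 1306 counts, or 54.8% ± 1.56 (SD, n = 2). CLK3-226, which holds introns 3 and 4, had 276 and 128 counts, and CLK3-203, which holds intron 3 and had a mean share below 5%, was at 0 in replicate 1 (allowing up to 0.134% of the gene) and had 183 in replicate 2. Summed over its transcripts, intron 3 was held by 276 and 311 counts, so the sum differed less between the libraries than either transcript. The MANE transcript CLK3-202 had 166 and 142. CLK3-212, of 10498 nt, had 269 and 295 counts, and 701 nt of it lie on exons of EDC3 on the opposite strand, a gene of 917 and 1006 counts. Whether the counting used strand is not given in the sources used here, so reads from those bases cannot be told apart.

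In CLK2 the protein-coding CLK2-202 led with 790.2 and 704 counts, or 71.7% ± 7.52 (SD, n = 2), while the MANE transcript CLK2-203 was at 0 (allowing up to 0.309%) and 102. Exon 4 of CLK2-202 is 85 nt long and starts 3 nt later than in the MANE transcript, so that the first CAG in capitals above is left out. Of the counts on transcripts with exon 4 in either form, the 85-nt form had 95.6% in replicate 1 and 83.1% in replicate 2, averaging 89.3% ± 8.82 (SD, n = 2). CLK2-207 has no defined coding sequence and holds introns 4, 10 and 11, with 92.9 and 117 counts. CLK2-205, without a defined coding sequence too, skips exon 4 and had 83.6 and 75.7. CLK2 thus had transcripts of the same kinds as CLK1, under another class name.

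To compare the CLK genes by structure and not by class, transcripts that span exon 4 were sorted into those that join it to exons 3 and 5, those that hold intron 3, intron 4 or both whole, and those that skip exon 4. Intron-holding transcripts had 24.9% in replicate 1 (22.1 to 27.9%) and 21.0% in replicate 2 (18.2 to 24.0%) of these counts in CLK1, averaging 23.0% ± 2.75 (SD, n = 2). In CLK4 they had 27.3% (23.1 to 32.1%) and 27.1% (22.3 to 32.3%), averaging 27.2% ± 0.151. They had 15.1% and 17.99% in CLK3, averaging 16.5% ± 2.07, and 9.26% and 11.3% in CLK2, averaging 10.3% ± 1.42. The order was CLK4, CLK1, CLK3 and CLK2 in each library, and all 6 pairs differed by the rule of order and SDs. Divided by length the means were 18.2%, 14.3%, 9.74% and 7.10%, and CLK2 and CLK3 then no longer differed.

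Skipping of exon 4 was highest in CLK1, with 26.8% (23.9 to 29.8%) and 18.2% (15.5 to 21.0%), averaging 22.5% ± 6.08 (SD, n = 2). CLK2 had 8.33% and 7.28%, CLK4 had 6.14% and 3.02%, and CLK3 had 1.27% and 2.30%. CLK1 was above each of the other CLK genes in both libraries, and 5 of the 6 pairs differed by the rule, all but CLK3 with CLK4. This order depended on the unit. Divided by length, CLK1 had 26.7% ± 7.48, CLK4 18.6% ± 7.81, CLK2 7.74% ± 0.683 and CLK3 3.20% ± 2.60 (SD, n = 2 each). CLK4 then no longer differed from CLK1, and it stood above CLK2 and CLK3 by the rule, so that the call between CLK2 and CLK4 turned its direction. The CLK4 value rests on CLK4-212, a fragment of 572 nt with 25.9 and 9.004 counts. Of its length, 161 nt (28.1%) lie on RN7SKP70, the same-strand gene named above. Whether reads from that or similar sequence were counted on CLK4-212 was not tested. Exon 4 was joined to both neighbours in 48.3% and 60.8% of these counts in CLK1, and in 66.6% and 69.9% in CLK4, 82.4% and 81.5% in CLK2, and 83.7% and 79.7% in CLK3.

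**Figure D5:**
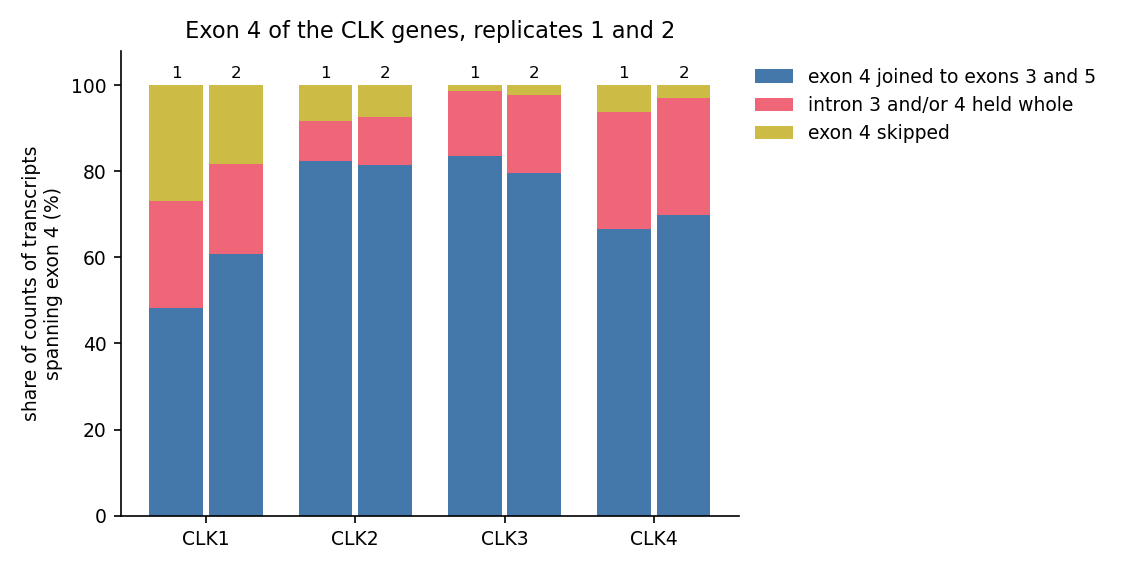
Share, in percent, of counts of transcripts spanning exon 4 that join it to exons 3 and 5, hold intron 3, intron 4 or both whole, or skip exon 4, for the 4 CLK genes with 1 bar per replicate. CLK4 and CLK1 have the largest intron-holding parts (27.2% and 23.0% on average), and CLK1 the largest skipping part (22.5%).

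Intron by intron, the held share is the part of counts on transcripts that hold an intron whole among those that hold it or splice it. It was at least 25% in both libraries for 1 of 78 introns of the 6 genes, intron 4 of CLK1, where 0.592% of 113105 introns were. That intron was held by 34.0% of these counts in replicate 1 (30.5 to 37.9%) and 25.7% in replicate 2 (22.3 to 29.2%), averaging 29.9% ± 5.90 (SD, n = 2), and by 19.8% ± 4.52 when divided by length. Intron 3 of CLK1 had 25.6% and 11.4%. In CLK4 intron 3 was held by 22.5% and 22.7% and intron 4 by 11.4% and 15.6%, and in CLK3 intron 3 was held by 14.9% and 16.5% and intron 4 by 15.3% and 8.71%. Intron 4 was the only intron held by a counted transcript in all 4 CLK genes.

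Of the other CLK introns, intron 7 of CLK1 was held by 8.18% and 12.8%, and introns 10 and 11 of CLK2 by 9.61% and 11.7% each, all on CLK2-207. Introns 11 and 12 of CLK4 were held by 6.19% and 5.04% each, on CLK4-202, which also holds intron 4. Intron 2 of CLK1 was held by 2.58% and 2.02%. None of the listed SRPK2 transcripts holds a whole intron, so its held shares were 0 by annotation. In SRPK1 intron 1 alone was held by a counted transcript, with 6.43% and 40.1% of the few counts that span it. SRPK2-207, the main retained_intron transcript of SRPK2 with 201 and 106 counts, has a part of intron 9. In SRPK1 the transcript that holds intron 1 was SRPK1-201, a retained_intron transcript with 41.9 and 138 counts, or 0.461% and 1.96% of the gene. Whether SRPK2 holds whole introns therefore cannot be read from these annotated transcripts.

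Among 72 inner exons of the members, 4 were skipped by at least 5% of counts in both libraries, exons 4 and 10 of CLK1, exon 4 of CLK2 and exon 10 of CLK4, where 6.25% of 105049 exons were, so the share of members was near that of all exons. Exon 10 of CLK1, of 83 nt, was skipped in 18.5% and 28.3% of counts, averaging 23.4% ± 6.95 (SD, n = 2). In CLK4 exon 10 was skipped in 6.19% and 5.04%, on CLK4-202.

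SRPK1 was carried by SRPK1-202, protein-coding, with 8330 and 6615 counts or 92.8% ± 1.59 (SD, n = 2), while its MANE transcript SRPK1-204 had 90.02 and 16.3. Exons of LHFPL5 on the opposite strand cover 1879 of the 4286 nt of SRPK1-202, but LHFPL5 itself had 1.69 counts in each library. SRPK2-202, the MANE transcript, led SRPK2 with 1819 and 1227 counts, or 71.7% ± 8.59. SRPK2-214, also protein-coding, had 133 and 419, so its share moved from 5.70% to 22.4% between the libraries. Processed pseudogenes named after the members, CLK2P1, CLK3P2 and SRPK2P, had at most 5.36 counts in a library.

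The genes nearest to CLK1 in their shares over the 4 transcript classes, among 4532 protein-coding genes with at least 1000 normalised counts in both libraries, were FAM219B, YDJC, PCYOX1L, DDX11 and SAP30BP, at distances of 9.79 to 17.5 percentage points over 8 values. FAM219B had mean shares of 33.5% protein-coding, 21.9% retained_intron and 44.1% decay transcripts. Other kinases of related families had a median retained_intron share of 3.26% over 7 genes with such a transcript. Of these, 1 gene, DYRK4, was above 50% in both libraries with 87.0% and 78.6%. CDK11A, named after its values were seen, had 42.7% and 73.6%. DYRK4 and DYRK1A had the highest levels of the 15 listed kinases, with 28.3 ± 2.91 and 25.4 ± 3.53 per length, and HIPK4 and SRPK3, an SRPK known from muscle, the lowest, with 0.0853 ± 0.0764 and 0.926 ± 0.00269 (SD, n = 2).

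Of the SR proteins that these kinases phosphorylate, 14 genes were listed and 12 had a retained_intron transcript, with a median share of 15.8% against 4.94% over all 6852 genes and none at 50% or more in both libraries. The highest share was that of TRA2B, named after its values were seen, with 49.5% and 53.6%. SRSF9 and SRSF3 had the highest levels, 146 ± 7.86 and 134 ± 14.7 per length, and SRSF8 and SRSF12 the lowest, 8.18 ± 0.877 and 9.89 ± 0.972. Of 7 phosphatase and importer genes, 5 had such a transcript, with a median share of 3.87%. PPP1CC and PPP2CA, catalytic subunits of protein phosphatases, had the highest levels, 131 ± 24.0 and 84.0 ± 4.43 per length, and PPP1R10 and PPP1CB the lowest, 12.1 ± 0.292 and 16.8 ± 4.99. OGT and MAT2A, genes also known for a regulated retained intron, had retained_intron shares of 43.7% and 47.6%, and of 6.81% and 7.23%. CLK1, CLK3 and CLK4 lay between them in both libraries, and SRPK2 in replicate 1 only.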

How the data were processed

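Total RNA depleted of rRNA from 2 HEK293 libraries (25158962 and 27143860 estimated counts) was used. Per the labels, TruSeq libraries were made, and the submitters' processing notes name STAR 2.7.0d, RSEM 1.3.3 and R 3.6.3. The deposited values were estimated counts per transcript from RSEM, in which reads matching several transcripts are divided, and a normalised signal, which the authors obtained by dividing these counts by a size factor, 0.945 and 1.08. The annotation release behind the counts may differ from GENCODE v44 (GRCh38), to which identifiers were matched without version. All 89 member transcripts matched, 12 with another version, 18 at 0 in both libraries and 15 at 0 in 1. Among the 12 were the MANE transcripts of all 6 genes, so their counted models may differ from the annotated ones used here.

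Classes are GENCODE biotypes. An intron was held where an exon ran past both ends, spliced where a junction overlapped it by 90% both ways, and an exon was included where 50% of it was covered. Shares have exact Clopper-Pearson 95% intervals on rounded estimated counts, and a count of 0 allows up to 3 counts. With 1 group no test was run. The call of a 50% share was tested on simulated data, but the outcome is not given here and no result rests on it. Text names members, those of their transcripts at a mean share of 5% or more, and, from listed genes, those at 50% or more in both libraries and the 2 highest and 2 lowest per length. Members and lists were chosen with earlier results of these data known, and the exon 4 groups, the bases at intron starts and other transcripts after seeing the data. Tables holding METTL8 transcripts alone were not used. Python 3.11.15, pandas 2.3.3, scipy 1.17.1, pysam 0.24.0 and biopython 1.88 were used. Alternatives were length-normalised values, same-version transcripts, filters on low values, other denominators and each library alone.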

Additional observations from a re-analysis of the deposited data

How the results depend on the processing

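The retained_intron shares of CLK1 (24.6 to 28.6%) and CLK3 (16.3 to 20.9%) moved by less than their SD under every alternative tried. That of CLK4 was 31.7% when divided by length, 31.7% without transcripts lacking a defined coding sequence and 56.2% with same-version transcripts only, which leaves out CLK4-201. Divided by length it was 8.20% for SRPK1 and 10.7% for SRPK2, and same-version transcripts gave 32.6% ± 19.0 for SRPK2, without SRPK2-202. Genes at 50% or more in both libraries numbered 174, and 51 with a gene minimum of 1000 counts, 294 with a minimum of 10 and 616 with same-version transcripts. Of these changes the filters act through fewer or more genes and transcripts kept. The other causes were not tested. No alternative could be given for CLK2, which has no transcript of the class. Of 38 values for the main results under alternatives, 29 stayed within the spread, or within 1.5 times for counts, and 9 moved. Of the values for decay shares, totals and held introns, 32 stayed and 26 moved. Each library alone was among these alternatives. With n = 2 such a value always lies within the SD of the mean, so it could not move. This holds for both tallies and for the single-library values of CLK1 and CLK3 above, which therefore say nothing on stability. At 348 to 507 normalised counts, CLK4 had the widest counting intervals of the members. No paired analysis was possible because there was 1 group and no comparison between groups.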
